A study of Mus musculus with 11 samples.

Results

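Goblet cells are the mucus-making cells of the colonic epithelium, and 10 genes of their secretory programme were followed here: Muc2, Fcgbp, Clca1, Zg16, Agr2, Tff3, Spink4, Retnlb, Spdef and Atoh1. They were picked by gene symbol, and all 10 were found among the 29809 named genes of the deposited single-cell count matrix of mouse colonic mucosa. Each count is a UMI (unique molecular identifier), which stands for 1 captured RNA molecule. The 3′ method counts transcript ends whatever the length of the transcript, so levels are given as CPM, the UMIs of a gene per 1000000 UMIs of the cells summed, and are not divided by gene length.

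The 11 groups held 1 library each with a sample record, 55603 cells in all. The Il10-/- library came from mice of about 10 months that lack interleukin 10, an anti-inflammatory cytokine, and develop colitis without a chemical injury. A set of 9 libraries came from wild-type mice of about 2 months given 3% dextran sulfate sodium (DSS), a polysaccharide that injures the colonic epithelium, for 6 days, and taken on 9 days from the start of DSS: days 6 and 7 (at the end of exposure), 9, 11 and 12, and later days 16 and 18, then 19 and 23. The uninjured library came from untreated wild-type mice of about 2 months. Genotype and age cannot be told apart in the Il10-/- library. Every library was a pool, of 3 mice on days 7, 11 and 18 and of 8 mice otherwise by the authors' cell table. Days 7, 11 and 18 carry the batch label C and were run fresh, and the other libraries had been frozen. The sample records give those others no batch label, while the authors' cell table gives them as batch A. They are called libraries with no batch label below. With 1 pool per group no pair of groups could be tested, p-values measure only the spread between these pools, and intervals on single libraries cover counting error only.

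The mucus layer of the colon is built on Muc2, the gel-forming mucin of goblet cells. Fcgbp, the IgG Fc binding protein, Clca1, a metalloprotease that cleaves Muc2, and Zg16, a lectin that binds Gram-positive bacteria, are abundant components of that mucus. Tff3 is a trefoil peptide involved in epithelial repair, Spink4 is a Kazal-type protease inhibitor homologue of goblet granules, and Retnlb (RELMβ) is a secreted goblet protein that is induced by microbes and by type 2 cytokines. Agr2 is a protein disulfide isomerase of the endoplasmic reticulum that is needed for Muc2 production. Atoh1, a basic helix-loop-helix factor, commits cells to the secretory lineage, and Spdef, an ETS factor, acts after it in goblet maturation.

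In the mm10 genome the GENCODE vM21 annotation places Muc2 at chr7:141690340-141754693, Fcgbp at chr7:28071236-28120862 and Zg16 at chr7:127050156-127087328. Spdef lies at chr17:27714352-27728955 and Tff3 at chr17:31125306-31129646. Clca1 lies at chr3:145003817-145032776, Spink4 at chr4:40920052-40931395 and Atoh1 at chr6:64729125-64731245. Agr2 lies at chr12:35992907-36004087 and Retnlb at chr16:48816856-48818892. The counts cover whole genes, so no exon or isoform of these genes was resolved.

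The authors' goblet type held 1448 cells, from 10 on day 12 to 804 on day 18, with 56 in the Il10-/- library and 63 in the uninjured library. Goblet UMIs summed to between 54909 on day 12 and 7262689 on day 18. The type name held against 11 other goblet genes, among them Fer1l6, Bcas1, Sytl2 and Klk1, which together stood at 2198 to 3875 CPM in the goblet cells of every library, with at least 10 of the 11 detected. Markers of other cells were also present in the goblet sums. The 5 neutrophil markers summed to 875 CPM in the Il10-/- library and 33473 (day 11), 14142 (day 7) and 11804 CPM (day 9) in the 3 highest DSS libraries, with 3 CPM in the uninjured library. The 8 colonocyte markers were all detected or nearly so (7 or 8 of 8) and summed to between 1480 and 14361 CPM, highest on day 7. The T cell markers were at 0 in the goblet sums of days 6 and 12 and in the uninjured library. The part of these other cells in the levels below was not tested.

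The goblet type held the highest level of each of the 10 genes among the authors' cell types. These types come from the authors' clustering of the same cells, so levels by type are a description. Over the 11 libraries the median goblet level was 12455 CPM for Muc2 (5138 to 19985), 10064 for Zg16 (54.6 to 65585), 10463 for Tff3 (1184 to 27999) and 13424 for Spink4 (9243 to 29485). Agr2 had a median of 8290 CPM, Fcgbp 3248 and Clca1 2399. Retnlb, at a median of 554 CPM, spanned 22.2 to 2394, while the factors Spdef and Atoh1 had medians of 173 and 105 CPM. The order of these medians carries little weight between neighbours, since the ranges of Muc2, Spink4, Tff3, Zg16 and Agr2 overlap. Spdef and Spink4 varied least between libraries (highest over lowest 3.04 and 3.19), and Zg16 varied most (1200).

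**Figure D1:**
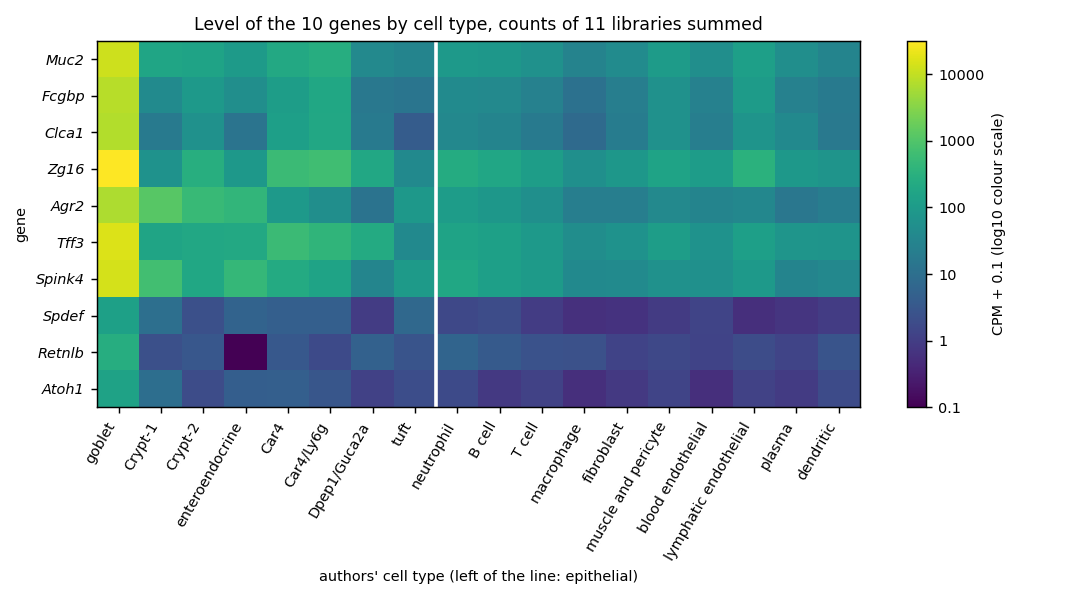
Colour gives the CPM of each gene (rows) in each cell type of the authors (columns), with counts of the 11 libraries summed and a log10 colour scale; types left of the white line are epithelial. The goblet column is the brightest in every row, Agr2 and Spink4 are next brightest in Crypt-1 cells, and Zg16 and Tff3 in Car4 types.

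Outside the goblet type, the members differed in where in the epithelium they were found. Agr2 stood at 1183 CPM in Crypt-1 cells, a crypt type of the authors, and at 526 CPM in Crypt-2 cells, counts of all libraries summed. In Crypt-1 cells Agr2 ranged from 190 CPM on day 7 to 1414 on day 18, and it was 8.75 to 94.8 times the level in non-epithelial cells of the same library in all 11 libraries. After each cell was thinned to 1000 UMIs at random, 61.0% of goblet cells and 50.7% of Crypt-1 cells had an Agr2 UMI, against 2.45% of fibroblasts. The summed Agr2 level of Crypt-1 cells was thus above that of the non-epithelial cells in each library. Single cells were not compared in this way, and the part of doublets was not tested.

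Spink4 showed a similar but less even pattern. It averaged 688 CPM over all Crypt-1 cells and exceeded the non-epithelial level of the same library at least 2-fold in 7 of 11 libraries. The highest value was 3727 CPM in the 16 Crypt-1 cells of the uninjured library, where 53.3% of thinned cells had a Spink4 UMI. The lowest was 25.7 CPM in the 22 Crypt-1 cells of day 7, which was 0.734 times the non-epithelial level there. Spink4 was not particular to Crypt-1 cells. It was at least 2-fold above the non-epithelial level in 8 of 11 libraries in Car4 cells, with a median ratio of 3.00, against 8.53 in Crypt-1 cells. The same held in 7 of 11 libraries in Crypt-2 cells, 6 of 11 in Car4/Ly6g cells and 1 of 8 in Dpep1/Guca2a cells. In the 94 enteroendocrine cells, which make hormones, Spink4 stood at 470 CPM and Agr2 at 431 CPM.

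By summed counts, Zg16 and Tff3 were instead highest, next to goblet cells, in both Car4 types, which the authors named for a carbonic anhydrase of surface colonocytes. With all libraries summed, Zg16 stood at 654 CPM in Car4/Ly6g cells and 580 CPM in Car4 cells, and Tff3 at 395 CPM in Car4/Ly6g cells and 557 CPM in Car4 cells. The Zg16 sum of Car4/Ly6g cells rested mainly on day 18 (1382 CPM), and its median over libraries was 175 CPM. In Dpep1/Guca2a cells, with values in 8 libraries, the Zg16 median was higher, at 221 CPM. There Zg16 was at least 2-fold above the non-epithelial cells in 7 of 8 libraries. Tff3, at a median of 247 CPM in Dpep1/Guca2a cells, was so in 8 of 8. Zg16 had a median of 499 CPM in Car4 cells over the 11 libraries, and in each it was at least 2-fold above the non-epithelial cells, from 2.36 times on day 18 to 23.9 times on day 9. Tff3 had a median of 539 CPM there, from 3.06 times the non-epithelial level on day 18 to 14.5 times on day 23. Clca1 was also at least 2-fold above the non-epithelial level in Car4 cells of all 11 libraries, at a median of only 56.2 CPM. In Crypt-1 cells the same 3 genes behaved differently: Zg16 and Clca1 reached 2-fold over non-epithelial cells in 0 of 11 libraries, and Tff3 did so in 5.

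Muc2, the mucin itself, was far lower outside goblet cells. Its median was 12455 CPM in goblet cells, against 121 CPM in Car4 cells and 136 CPM in Crypt-1 cells. It was nonetheless at least 2-fold above the non-epithelial level in 9 of 11 libraries in Car4 cells, with a median ratio of 4.44, and in 6 of 11 in Crypt-1 cells. The factors were scarcer still: Spdef and Atoh1 stood at 136 and 149 CPM in goblet cells, against 5.17 and 4.58 CPM in the other columnar types as a whole, all libraries summed. Within Crypt-1 cells, Spdef (median 8.14 CPM) was at least 2-fold above the non-epithelial level in 10 of 11 libraries and Atoh1 (6.95 CPM) in 8. The non-epithelial levels beneath these ratios were only 0.171 to 1.41 CPM for Spdef and 0.249 to 2.35 CPM for Atoh1. In libraries with few Crypt-1 cells, a few UMIs can thus carry such a ratio. Tuft cells, the chemosensory cells of the epithelium, had between 0 and 12 Muc2 UMIs per library. How many goblet cells or goblet fragments share a droplet with another cell was not measured, and no doublet caller was run. Cells with over 5% of their UMIs from the 10 genes made up 55.7% of goblet cells, 0.223% of the other columnar cells and 0.0318% of neutrophils.

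Cells that do not make mucus still carried UMIs of these genes. In non-epithelial cells the 10 genes together stood at 121 CPM on day 9 up to 1120 CPM on day 18, with 143 CPM in the Il10-/- library and 314 CPM in the uninjured library. The mean number of their UMIs was 239 to 2008 per goblet cell, against 0.375 to 7.45 per non-epithelial cell. The goblet level was between 73.2 times (day 11) and 565 times (day 9) the non-epithelial level. Of all UMIs of the 10 genes in a library, goblet cells held 86.5% on day 7 but 35.7% on day 12, where there were 10 goblet cells among 4103 cells.

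The make-up of these background UMIs tracked the goblet cells of the same library in some libraries and not in others. On day 18, Zg16 made up 35.0% of the goblet UMIs of the 10 genes and 29.2% of their background UMIs, and Agr2 made up 5.0% of the goblet and 6.4% of the background UMIs. The summed absolute difference between both make-ups, divided by 2, came to 15.8 percentage points in the Il10-/- library and 14.4 in the uninjured one. It was smaller in the 3 batch C libraries, at 10.3 (day 7), 10.1 (day 11) and 6.54 points (day 18). In the other DSS libraries it was 34.1 points on day 6 (15 goblet cells), 22.4 on day 9 (16 cells), 60.8 on day 12 (10 cells), 12.6 on day 16 (34 cells), 23.4 on day 19 (47 cells) and 21.3 on day 23 (78 cells).

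Day 12 is the extreme. Zg16 had 54.6 CPM in its goblet cells, which is 3 UMIs from 1 cell, and 45.1 CPM in its non-epithelial cells. It made up 0.125% of the 10 genes' UMIs in the goblet cells, against 22.9% in the non-epithelial cells. Tff3 made up 2.72% of the goblet UMIs and 35.4% of that background. By summed counts, Zg16 on day 12 was thus near the background level in the cells named goblet. With equal weight per cell it stood at 417 CPM, all from that 1 cell.

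**Figure D2:**
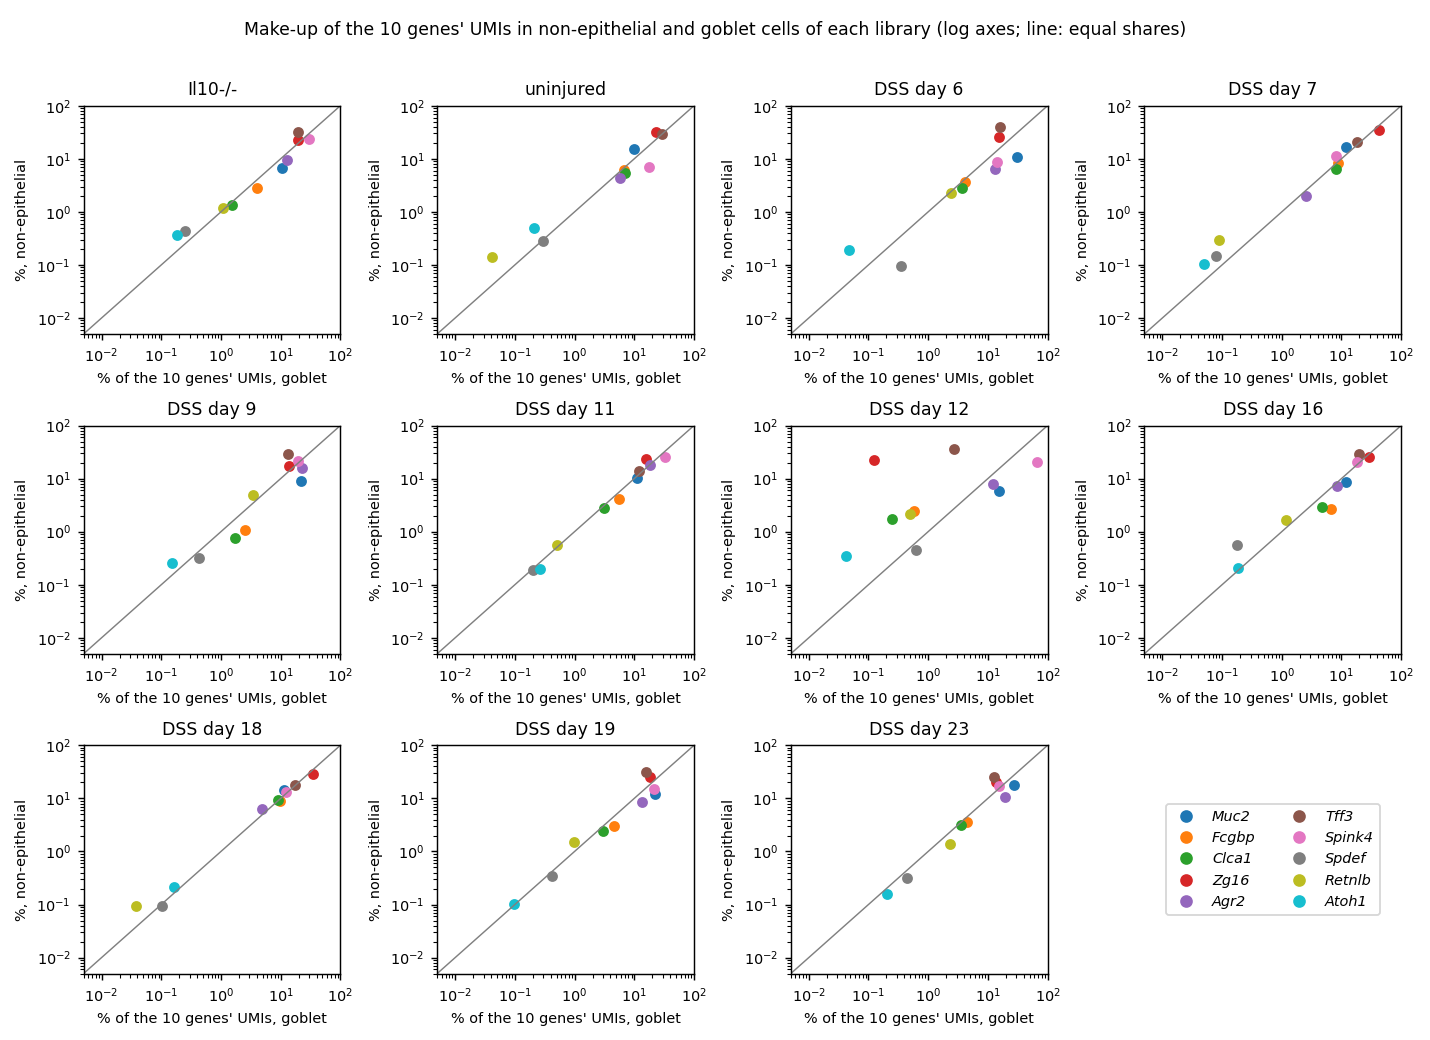
Each panel is 1 library and each point 1 gene: its percent of the 10 genes' UMIs in goblet cells (x, log axis) against that in non-epithelial cells (y, log axis), with the line of equal shares. Points lie near the line on days 7, 11 and 18, while on day 12 Zg16 and Tff3 lie far above it and Spink4 below it.

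Fibroblasts, which are present in every library, were used to follow this background over time. The day trend was tested in the 9 DSS libraries on summed counts with edgeR's quasi-likelihood test, with batch label as a term and Benjamini-Hochberg adjustment over all genes tested. It called 478 of 10290 genes, 4.65% of those tested (1.99% rising), and 7 of the 10 members had enough counts. Muc2 had 6.48 CPM in Il10-/- fibroblasts, against 54.1 in uninjured ones. It had 11.5, 36.4, 8.66, 39.5, 7.11, 16.0, 122, 33.6 and 44.6 CPM on the 9 DSS days in order, highest on day 18. Muc2 rose in fibroblasts by 1.52 ± 0.20 on the log2 scale per 10 days (SE, adjusted p = 0.0021, edgeR), Fcgbp by 2.00 ± 0.33 (0.0084) and Clca1 by 2.10 ± 0.43 (0.0270). The median slope was 1.15 over the 7 members and 0.00 over all genes. In the 6 libraries with no batch label alone, Muc2 had a slope of 1.52 (adjusted p = 0.00305, edgeR) and Fcgbp 1.64 (0.0792), and Clca1 was not tested; batch C, with 3 libraries, was not fitted alone. Muc2 was called with each DSS library left out in turn (adjusted p 0.000535 to 0.0262, edgeR). Without day 18, 167 genes were called, and the calls of Fcgbp (1.44, adjusted p = 0.144) and Clca1 (0.98, 0.335) were lost; that of Clca1 was also lost without day 7, 9 or 19 (0.0632 to 0.0679). Without the batch term, the calls of all 3 genes were lost, with adjusted p between 0.504 and 0.628. Goblet cells made up 0.609% of the day 6 cells, 9.20% of the day 18 cells and 2.37% of the day 23 cells, and the part of this in the fibroblast slopes was not tested.

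Within the goblet type, no member had a day trend past the threshold. The test called 0 of 4485 genes there, a share of 0%, with 150 genes, 3.34%, at an unadjusted p under 0.05, and DESeq2 called 16, none of them a member. In the same design, simulated slopes of 1 log2 unit per 10 days were called in 37.9% of goblet genes and slopes of 2 in 97.98%. Those counts were drawn with the spread typical of a gene's level and with no batch effect. Several members were noisier, with slope SEs of 1.16 for Zg16, 0.82 for Clca1, 0.74 for Fcgbp and 0.65 for Tff3. The simulated shares therefore do not say which slopes would have been called in these members. Atoh1 had the steepest slope of the members, 0.79 ± 0.36 (unadjusted p = 0.0445, adjusted p = 0.9998, edgeR), and Retnlb the lowest, -0.45 ± 0.58. The other 8 lay between -0.0036 (Muc2) and 0.43, with SEs up to 1.16 for Zg16. The median was 0.16 over the 10 members and 0.00 over all genes.

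In the other columnar types the test called 25 of 10687 genes (0.234%), and again no member. Fcgbp had a slope of 1.34 ± 0.33 (adjusted p = 0.140, edgeR), Atoh1 1.44 ± 0.42 (0.187), Spink4 0.996 ± 0.33 (0.239), Muc2 0.96 ± 0.33 (0.257) and Clca1 1.28 ± 0.44 (0.257). The median slope of the 10 members was 0.84, against 0.01 over all genes. DESeq2 called Fcgbp and Atoh1 here (adjusted p 0.0143 and 0.0381), and edgeR called Fcgbp without day 7 (1.81, adjusted p = 0.0171). Without day 18, 1 gene was called. The slopes of Muc2, Fcgbp and Clca1 in columnar cells stand beside the larger ones in fibroblasts of the same libraries. The goblet slope minus the other columnar slope was called in 26 of 11416 genes (0.228%) and for no member. The lowest adjusted p of a member was that of Atoh1, at -0.60 ± 0.33 (adjusted p = 0.749, edgeR), and the next that of Muc2, at -0.77 ± 0.38 (0.764). Without day 6 it was called for Spink4 (-1.49, adjusted p = 0.00161) and without day 11 for Muc2 (-0.78, 0.0342).

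Goblet levels differed widely between libraries, in courses that differed by gene. The mucin Muc2 had 5405 CPM in Il10-/- goblet cells, against 5138 in uninjured ones. On the 9 DSS days in order it had 19626, 18071, 15044, 6120, 6647, 11769, 12455, 17136 and 19985 CPM. All 9 DSS libraries were thus above the uninjured one, least on days 11 and 12, and 7 of the 9 were at least 2-fold above it, while the Il10-/- ratio was 1.05 (0.98 to 1.13, exact Poisson 95% interval). With equal weight per goblet cell, an average chosen after the data were seen, the ratio was 0.638 in the Il10-/- library and 0.777 on day 12.

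Zg16 took another course. It had 10064 CPM in Il10-/- goblet cells and 12108 in uninjured ones, and 9891, 65585, 9534, 8639, 54.6, 28422, 37931, 14217 and 10058 CPM on the DSS days. Days 7 and 18, both of batch C, were highest, and day 11 of the same batch was below the uninjured library. On day 9, 95.5% of the Zg16 UMIs came from 1 of the 16 goblet cells, and without it the level was 478 CPM.

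Clca1 and Fcgbp followed Zg16. Clca1 had 788 CPM in the Il10-/- library and 3615 in the uninjured one, and 2399, 12265, 1157, 1730, 109, 4626, 9934, 2374 and 2628 CPM on the 9 DSS days in order. Fcgbp had 2078 CPM in the Il10-/- library and 3523 in the uninjured one, and 2678, 13381, 1730, 3075, 255, 6520, 10520, 3626 and 3248 CPM on the DSS days. Both were highest on days 7, 18 and 16 and were lowest on day 12, where the Clca1 ratio to the uninjured library was 0.0302 (0.0111 to 0.0660). Tff3 was likewise highest on day 7, with 27999 CPM, and lowest on day 12, with 1184, beside 9904 in the Il10-/- and 15596 in the uninjured library.

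**Figure D3:**
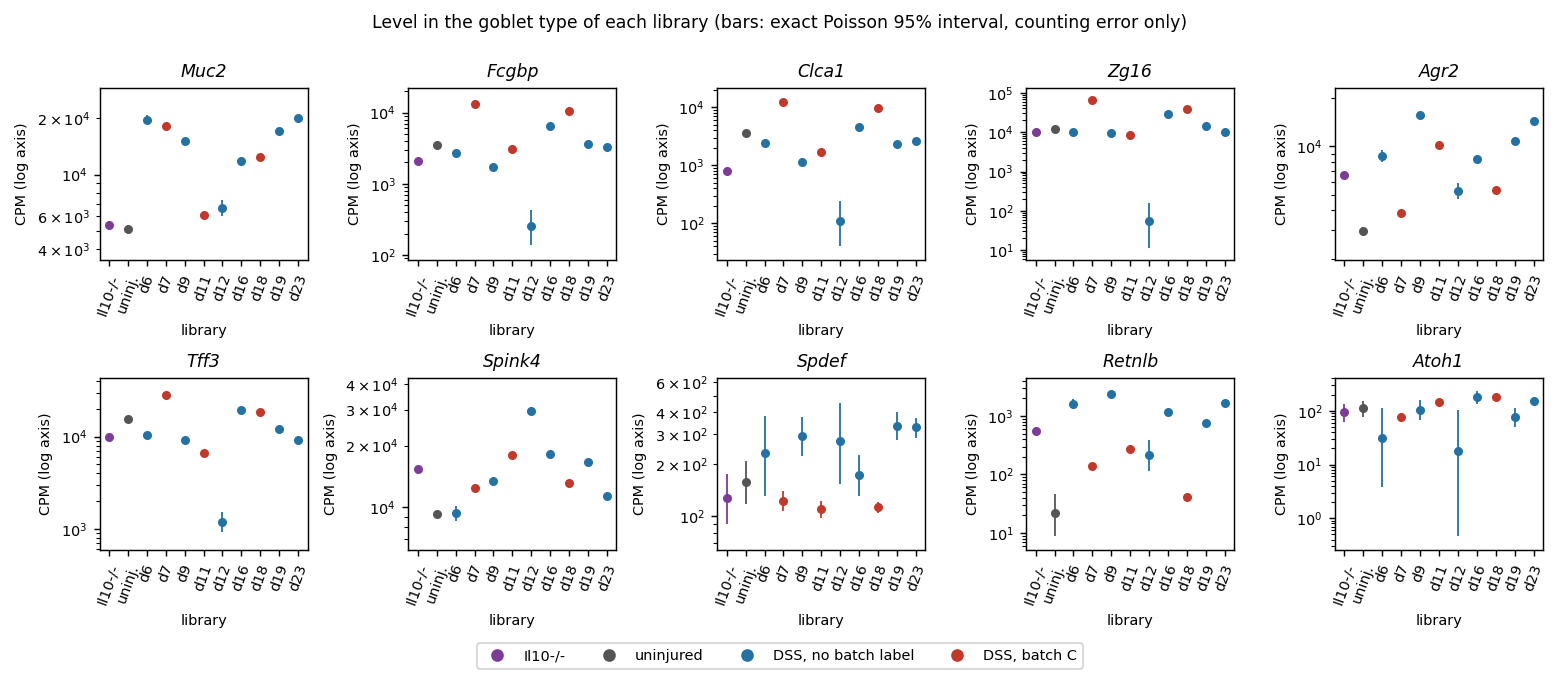
Each panel is 1 gene: CPM in goblet cells (log axis, own range per panel) of the Il10-/- library, the uninjured library and DSS days 6 to 23, with exact Poisson 95% intervals and red for batch C. Fcgbp, Clca1, Zg16 and Tff3 have their 3 highest values on days 7, 16 and 18 and their lowest on day 12, Retnlb is lowest in the uninjured library, and Spdef is lower in the 3 batch C libraries than in the other 6 DSS libraries.

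Agr2 and Spink4 did not share that course. Agr2 had 6617 CPM in the Il10-/- library and 2972 in the uninjured one, and 8699, 3871, 15627, 10137, 5281, 8290, 5359, 10713 and 14427 CPM on the DSS days. Every colitis library was above the uninjured one, by 1.302 times on day 7 to 5.26 times on day 9. With equal weight per cell, the ratio was 1.17 in the Il10-/- library and 0.891 on day 7. Spink4 had 15385 CPM in the Il10-/- library, from 9349 CPM on day 6 to 29485 on day 12 after DSS, and 9243 CPM in the uninjured library. It was highest on day 12, where Zg16, Clca1, Fcgbp and Tff3 were lowest. On day 6, 81.5% of the Spink4 and 69.8% of the Agr2 UMIs came from 1 of 15 cells.

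Retnlb was lowest in the uninjured library. It had 554 CPM in Il10-/- goblet cells, against 22.2 in uninjured ones, which is 7 UMIs. On the DSS days it had 1594, 138, 2394, 275, 219, 1167, 41.3, 759 and 1682 CPM. The ratio to the uninjured library was 25.02 (11.9 to 63.2) in Il10-/- goblet cells, 108 (52.1 to 270) on day 9 and 75.9 (36.7 to 189) on day 23, but 1.86 (0.894 to 4.68) on day 18, an interval that includes 1. Of the Il10-/- Retnlb UMIs, 50.6% came from 1 cell, and without it the level was 301 CPM. On day 6, 56.3% of the Retnlb UMIs came from 1 of 15 cells. Equal weight per cell gave ratios of 4.21 in Il10-/- goblet cells, 8.79 on day 6, 48.1 on day 9 and 0.430 on day 18.

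The share of goblet cells with Retnlb was compared after thinning to 1000 UMIs. A Retnlb UMI was found in 2 of 51 Il10-/- goblet cells (3.92%, 0.478 to 13.5, Clopper-Pearson 95%) and in 0 of 62 uninjured ones (3 cells would be 4.84%). Among DSS libraries with no batch label, 12 of 16 day 9 cells had one (75.0%, 47.6 to 92.7), as did 8 of 34 day 16 cells (23.5%), 9 of 46 day 19 cells (19.6%) and 13 of 74 day 23 cells (17.6%). Days 6 and 12, also without a label, held only 12 and 9 thinned cells, with at most 1 Retnlb UMI in a cell. Unthinned, 4 of 15 day 6 cells and 2 of 10 day 12 cells had one. In batch C the shares were 7.09% (10 of 141 day 7 cells), 11.3% (19 of 168 day 11 cells) and 1.03% (8 of 775 day 18 cells, 0.447 to 2.02). Before thinning the shares were 12.5% in the Il10-/- library, 87.5% on day 9 and 4.76% in the uninjured library. In fibroblasts of all libraries together, 0.0967% of thinned cells had a Retnlb UMI. The median depth was 5137 UMIs in goblet cells and 5857 in fibroblasts. Among non-epithelial cells, those of day 9 had the highest Retnlb level of the 11 libraries, 5.83 CPM, against 2394 CPM in day 9 goblet cells. The day 9 share lay far above the pooled fibroblast share, and the Il10-/- and uninjured shares were not distinguishable at this depth.

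**Figure D4:**
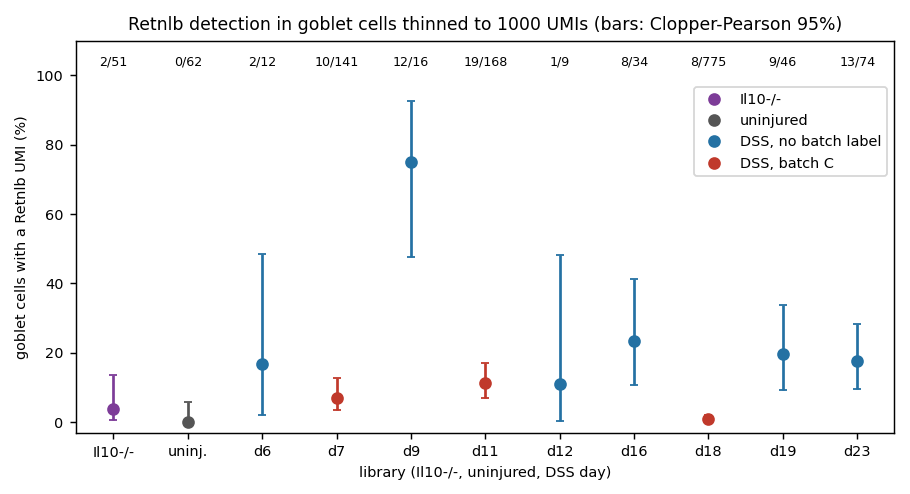
Percent of goblet cells with at least 1 Retnlb UMI after thinning each cell to 1000 UMIs, by library, with Clopper-Pearson 95% intervals and the counts of cells written above. Day 9 stands highest at 75.0%, the uninjured library has 0 of 62 cells, and the 3 batch C libraries lie between 1.03% and 11.3%.

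The lineage factors differed in how far they moved between libraries. Atoh1, with a highest over lowest of 9.85, had 93.5 CPM in the Il10-/- library, between 18.2 CPM on day 12, from 1 UMI, and 179 on day 18 after DSS, and 111 CPM in the uninjured library. Spdef had 127 CPM in the Il10-/- library and 158 in the uninjured one, and 232, 122, 292, 110, 273, 173, 112, 333 and 326 CPM on the DSS days. Of these, days 7, 11 and 18, the batch C libraries, were the 3 lowest and did not overlap the other 6 by summed CPM. On day 6, 66.7% of the 15 Spdef UMIs came from 1 cell. Without that cell the day 6 level was 109 CPM, and the separation was lost. With equal weight per cell, Spdef had 185 CPM on day 7 and 176 CPM on day 6, so the 2 sets overlapped. The day 7 ratio to the uninjured library was then 1.12. How many of all genes separate the sets by summed CPM was not counted.

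To set the members beside all genes, a ratio of at least 2-fold either way was counted, among genes that reached 20 counts in either library. In Il10-/- goblet cells it held for 3 of 10 members, Agr2 and Retnlb higher and Clca1 lower, beside 10.9% of all genes. Among the DSS libraries it held for 5 of 10 members in those of day 7 (30.9% of genes) and day 9 (34.1%). It held for 4 of 10 in those of day 6 (24.3%), day 11 (24%), day 16 (13.6%), day 18 (25.6%), day 19 (21.3%) and day 23 (19.8%). On day 12 it held for 6 of the 9 members tested (22.8%), with Spink4 higher and Fcgbp, Clca1, Zg16, Tff3 and Atoh1 lower. Muc2 and Agr2 were 2-fold higher on 7 and 6 of the 9 days, and Retnlb on 7 of the 8 days on which it could be counted. These ratios share the uninjured library and so are not independent. Median mitochondrial content of goblet cells, a sign of cell quality, was 36.6% in the Il10-/- library, 12.3% (day 9) to 35.9% (day 6) after DSS and 29.4% in the uninjured library. Without mitochondrial genes the member counts stayed as they were except on days 19 and 23, with 3 in place of 4. With cells of at most 30% mitochondrial and at least 1000 UMIs, they were 6 in place of 5 on day 9, 3 in place of 4 on day 16 and 5 in place of 4 on days 18 and 23, and days 6 and 12 had too few cells.

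In the other columnar types of the Il10-/- library, the same rule held for 2 of the 9 members tested (13.7% of genes), with Retnlb at least 5.59-fold higher, against a floor of 3 counts in place of the 0 Retnlb UMIs of the uninjured library, and Clca1 lower at 0.260 times. In the DSS libraries it held for 2 of 7 members of day 6 (13.3%), 5 of 10 of day 7 (24.8%), 3 of 10 of day 11 (38.5%), 3 of 7 of day 12 (14.3%), 0 of 7 of day 16 (12%), 3 of 9 of day 19 (14.3%) and 4 of 10 of day 23 (13.8%). On day 9 it held for 6 of 7 members, all lower (22.7%, 7.03% lower), with Spink4 at 0.159 and Clca1 at 0.121 times the uninjured level. On day 18 it held for 7 of 10, all higher (31.6%, 28% higher), with Fcgbp at 6.57 and Clca1 at 5.95 times. In non-epithelial cells the 10 genes summed to 121 CPM on day 9 and 1120 CPM on day 18, against 314 CPM in the uninjured library, and the part of this in the columnar ratios was not tested. The columnar counts moved with the scaling and the cells used. On day 7 they were 5 members higher and 0 lower, but 2 higher and 3 lower without mitochondrial genes and 3 higher and 3 lower with the stricter cells. On day 18, 5 in place of 7 were higher under either change. With the stricter cells 0 members were higher and 4 of 7 lower in the Il10-/- library, and 0 higher and 5 of 7 lower on day 19. Without mitochondrial genes 2 in place of 4 were higher on day 23. The 6 of 7 lower on day 9 held under both. Leaving mitochondrial genes out also moved the median ratio of all tested genes, to 1.13 in place of 1.44 on day 18 and to 0.854 in place of 1.10 on day 7.

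Because batch C had been run fresh and from fewer mice, its difference from the libraries with no batch label was tested in the goblet type, a test chosen after the data were seen. edgeR called 330 of 4485 genes (7.36%, 4.19% higher and 3.17% lower in batch C). Of the members, Spdef was lower in batch C, at 115 CPM on average (110 to 122, n = 3) against 272 CPM (173 to 333, n = 6), a log2 difference of -1.13 ± 0.26 (adjusted p = 0.0173, edgeR). Retnlb averaged 151 CPM (41.3 to 275) in batch C and 1303 CPM (219 to 2394) without a label, a difference of -3.26 ± 0.83 that missed the threshold (adjusted p = 0.0506, edgeR). Clca1 (2.07 ± 0.99), Fcgbp (1.83 ± 0.87) and Zg16 (1.82 ± 1.33) were above 0 and not called. With each goblet cell thinned to 500 UMIs before summing, 14 genes were called and Retnlb was among them, at -3.56 (adjusted p = 0.00802, edgeR), while Spdef had too few counts. Without day 18, 71 genes were called and the Spdef call was lost (adjusted p = 0.236, edgeR), as it was without day 9 (0.0635) or day 19 (0.0571), while without day 11 918 genes were called. Freezing, pool size and run cannot be told apart. The day slopes of the 2 sets of libraries differed for 0 of 5129 genes (0%, edgeR, adjusted p of 1 for each of the 10 members).

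Between single goblet cells of the same library, 2 groups of members varied together, though on day 7 the groups were not separate. Clca1, Fcgbp, Zg16 and Tff3 correlated in each of the 7 libraries with at least 40 thinned cells, with Spearman's rho across cells from 0.46 (Zg16 with Tff3, day 7) to 0.92 (Clca1 with Zg16, day 19). Agr2 and Spink4 correlated with each other at 0.47 to 0.75, with a median of 0.62. These values describe cells that share a library and its free RNA, all at the same depth.

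Muc2 went with the first group in most libraries but not in all. Its median rho over the 7 libraries was 0.51 with Clca1, 0.44 with Fcgbp, 0.42 with Zg16 and 0.31 with Tff3, against -0.05 with Agr2 and 0.07 with Spink4. With Clca1 the values ran from 0.24 to 0.73, while with Zg16 the lowest was -0.08, on day 7. On day 23 Muc2 had higher values with Spink4 (0.42) and Agr2 (0.31) than with any gene of the first group (Tff3 0.0027, Fcgbp 0.10, Zg16 0.16 and Clca1 0.24). Across the groups, Clca1 with Spink4 was between -0.28 and -0.08 in 6 libraries, the Il10-/- (-0.24) and uninjured (-0.27) ones included, and 0.46 on day 7. Zg16 with Agr2 was -0.57 on day 19 and 0.56 on day 7, so the relation between the groups turned with the library. On day 7, Tff3 with Spink4 (0.75) and Zg16 with Spink4 (0.62) exceeded pairs within the groups. Among those were Agr2 with Spink4 (0.47) and Zg16 with Tff3 (0.46).

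**Figure D5:**
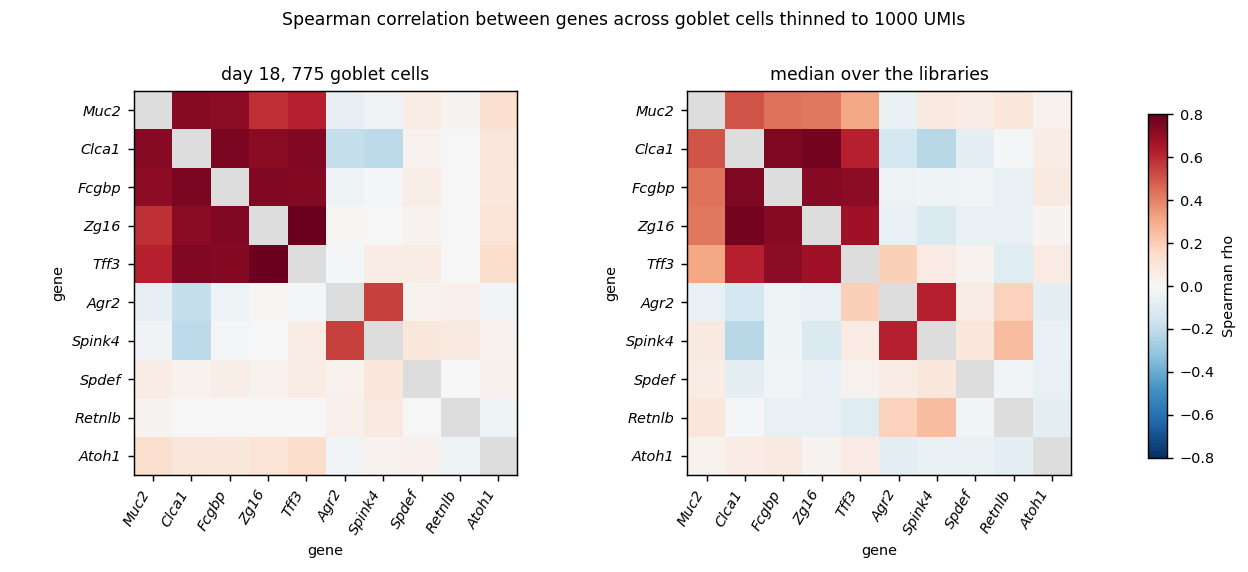
Spearman's rho between each pair of genes across goblet cells thinned to 1000 UMIs, on day 18 (left) and as the median over the libraries with at least 40 such cells (right); grey marks a gene with itself. A block of Clca1, Fcgbp, Zg16 and Tff3, joined by Muc2, and a pair of Agr2 and Spink4 stand out in red. Values between the blocks are lower, and below 0 for Clca1 with Spink4 (-0.21 on day 18 and a median of -0.22).

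The share of cells with Fcgbp, Clca1 and Zg16 together, 3 of the 4 genes of the first group, differed between libraries. These 3 were all detected in 17.6% of Il10-/- goblet cells (8.40 to 30.9) and 24.2% of uninjured ones (14.2 to 36.7), overlapping intervals. The share was 91.5% (85.6 to 95.5) on day 7, and 72.3% (69.0 to 75.4) among the day 18 cells. In the day 9 library it was 6.25%, 1 of 16 cells, and in the day 12 library 0 of 9 cells (3 cells would be 33.3%). None of the 3 was detected in 45.1% of Il10-/-, 0.709% of day 7 and 32.3% of uninjured goblet cells.

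RefSeq promoter sequences (GRCm38.p6) were available for 5 members, and the 250 bases before the start are shown for Muc2, for Fcgbp as a member of the first group and for Agr2 as a member of the second, since these are the sets that varied together. Capitals mark CAGCTG, an E-box form that basic helix-loop-helix factors can bind, and CACCC or its complement GGGTG, a box bound by Krüppel-like factors, which include the goblet factor Klf4. Both strands were searched, and no match of one motif overlapped the other, while a pair of the CACCC matches in Muc2 share a base. The start is that of the RefSeq windows. For Agr2 it lies past the GENCODE gene start (35992907), so the last bases of that window lie inside the GENCODE gene.
Muc2, chr7:141690090-141690339, plus strand: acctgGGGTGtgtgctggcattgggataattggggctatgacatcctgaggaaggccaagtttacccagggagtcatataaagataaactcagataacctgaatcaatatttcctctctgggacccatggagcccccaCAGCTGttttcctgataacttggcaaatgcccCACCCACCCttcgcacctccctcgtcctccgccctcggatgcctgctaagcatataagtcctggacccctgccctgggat
Fcgbp, chr7:28070986-28071235, plus strand: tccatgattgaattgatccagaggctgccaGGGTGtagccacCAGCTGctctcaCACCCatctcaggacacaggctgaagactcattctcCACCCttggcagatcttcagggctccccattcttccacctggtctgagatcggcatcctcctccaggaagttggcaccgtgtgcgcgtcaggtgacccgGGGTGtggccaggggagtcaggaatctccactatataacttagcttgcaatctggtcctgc
Agr2, chr12:35992675-35992924, plus strand: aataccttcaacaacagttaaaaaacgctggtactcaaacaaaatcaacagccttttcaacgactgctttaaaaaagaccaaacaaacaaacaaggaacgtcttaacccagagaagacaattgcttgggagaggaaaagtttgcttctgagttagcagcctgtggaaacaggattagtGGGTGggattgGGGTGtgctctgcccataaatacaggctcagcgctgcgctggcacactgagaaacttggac

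CAGCTG occurred once in the Muc2 window, starting 112 bases before the start, and once in that of Fcgbp, 208 bases before it, and not in that of Agr2. It was in 4271 of the 32851 RefSeq promoter windows of this length, and CACCC or GGGTG was in 17087, 52.0% of them. CACCC matched at 3 places in Muc2, at 4 in Fcgbp and at 2 in Agr2. Of the members whose windows are not shown, Spdef had no match of either motif. Atoh1 had no CAGCTG and 1 CACCC match. These matches are letters in a window and no measurement of binding.

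By pattern over the authors' 28 cell types (Pearson's r of log2(CPM + 1), counts of all libraries summed), the 5 genes most like Muc2 were Tff3 (0.948), Sval1 (0.938), Fcgbp (0.928), Zg16 (0.926) and Spink4 (0.898), so 4 of the 5 were members. Those most like Atoh1 were Best2 (0.942), Spdef (0.929), Clps (0.928), Gal3st2c (0.912) and Bcas1 (0.903). Those most like Retnlb were Zg16 (0.791), Tff3 (0.763), Sval1 (0.762), Rep15 (0.748) and Tpsg1 (0.746). Within the goblet type, over the 11 libraries, they were Slc30a4 (0.964), Ccl9 (0.957), Sec61g (0.925), Serp1 (0.912) and Tspan13 (0.911). These are the highest of 9839 to 14352 genes compared and are given as a description.

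Other genes of the goblet pathway, from 7 lists, showed no call in either the goblet or the other columnar day trend. Of the tested goblet genes these were 0 of 9 secretory lineage factors, 0 of 20 mucin glycosylation genes, 0 of 15 mucus secretion and processing genes, 0 of 11 other goblet products, 0 of 5 other mucins and trefoil factors, and 0 of 1 each for Notch genes and type 2 signal genes. The median goblet slopes of the 7 lists ran from -0.06 to 0.41, against 0.00 over all genes. The steepest were those of Ang4, an antimicrobial angiogenin, at 2.16 ± 0.87, and Mptx1, a mucosal pentraxin, at 1.23 ± 2.18. Ang4 had 53.4 CPM in the Il10-/- and 50.6 in the uninjured library, with 0 on day 6 and 902 on day 23. Mptx1 had 11905 CPM in Il10-/- goblet cells and 18040 in uninjured ones, and was at 0 on days 6 and 9. The other named goblet slopes were 0.78 for Hes6, an inhibitor of Hes1, 0.41 for Hes1, a Notch target, 0.85 for Clca4a and -0.74 for Capn8. The glycosyltransferases St3gal6 and St3gal4 had 0.64 and 0.47, the mucins Muc1 and Muc3 -0.46 and 0.22, Creb3l1, a secretory transcription factor, 0.30, and Il13ra1, a receptor chain for interleukin 13, 0.14.

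The other columnar cells gave 0 of 10 secretory lineage factors, 0 of 17 glycosylation genes and 0 of 18 secretion and processing genes called. None was called among 11 other goblet products, 5 mucins and trefoil factors, 4 Notch genes and 4 type 2 signal genes either. In these cells Clca4b, a chloride channel accessory family gene, had 1213 CPM in the Il10-/- library and 0.749 in the uninjured one, 3904 on day 7 and 268 on day 23, with a slope of -1.58 ± 0.56 (adjusted p = 0.273, edgeR). Il33, an alarmin cytokine, had a slope of -2.20 ± 0.61 (0.172), with 1.64 CPM in the Il10-/- and 1.497 in the uninjured library and 14.3 on day 6. Slopes were 2.93 for Mptx1, 2.49 for Reg4 and 1.62 for Fer1l6, and -0.96 for Fut2, a fucosyltransferase, -0.53 for Chst4 and -0.84 for Il4ra. They were -0.53 for Xbp1, a factor of the unfolded protein response, 0.46 for Hes6, -0.56 for Notch2, 0.55 for Hes1, -0.76 for Muc1 and -0.45 for Muc13.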

How the data were processed

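The deposited matrix held UMI counts per gene and cell, made by the authors with Cell Ranger 3.0.0 and the mm10 build, per the submitters' processing notes; the deposited cell table gave library, day, batch, mice and cell type. The sources used here do not give the cell filters or any doublet removal. Of 14 libraries, 11 matched a sample and were used. The other 3 (12621 cells) matched no sample record and were not used. They include a further day 0 library and a further day 7 library, both of batch B in the cell table. A library number was matched to a sample by its day, genotype and batch in the cell table. Rows without a gene name (597, 0.517% of counts) were left out. Barcodes found in more than 1 library numbered 611 (2.23% of cells), and these cells were kept. Library totals ran from 7922350 to 87012379 UMIs.

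The 10 genes and all lists were chosen with earlier results of these data known. Day trends used counts summed per library and class (at least 10 goblet cells, 20 otherwise), edgeR 4.0.16 (quasi-likelihood, robust, TMM, filterByExpr) with day and batch label, and an adjusted p under 0.05. SEs were taken from the F statistic. DESeq2 1.42.0 was an alternative. Ratios to the uninjured library used CPM with exact Poisson 95% intervals, with 3 counts in place of a 0. Other columnar types are the Car4, Car4/Ly6g, Dpep1/Guca2a, Crypt-1 and Crypt-2 types. The genes named besides the members are, per list, those called or else the 2 with the largest slope in each fit, and the 5 most alike. The steps were tested on simulated data: slopes of 1 and 2 were called in 61.0% and 99.0% of genes in other columnar cells and in 88.9% and 100% in fibroblasts, and a slope difference of 2 in 23.0% (6055 genes). None of these simulations used the members' own spread.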

Additional observations from a re-analysis of the deposited data

Results flagged for a closer look

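By summed counts, Spdef differed in direction between the 2 sets of DSS libraries. Against the uninjured library, the log2 ratio of Spdef in goblet cells averaged -0.46 in the 3 batch C libraries, each below 0, and 0.74 in the 6 libraries with no batch label, each above 0. The difference in direction itself was not tested in this form, all ratios share 1 uninjured library (50 Spdef UMIs), and with equal weight per goblet cell the day 7 ratio was 1.12, above the uninjured level. Day 6 had 15 Spdef UMIs, 66.7% of them from 1 cell. Without that cell its level was 109 CPM, below the 158 CPM of the uninjured library. Day 16 was close to the uninjured library, at 173 CPM from 55 UMIs. The groups of DSS libraries hold 1 library a day, so samples within a group were not screened for a stray value.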

How the results depend on the processing

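No paired analysis was possible because each group held 1 library, and groups shared no replicate. In the goblet day trend (0 genes called) the count was 16 with DESeq2, 136 with no filter on low counts, 9 without batch C and 1 with at least 20 cells or with cells thinned to 500 UMIs, and no member was among them. Other columnar cells (25) gave 326 with DESeq2, 126 unfiltered, 13 without mitochondrial genes, 1 with stricter cells (at least 1000 UMIs, at most 30% mitochondrial), 2 without the batch term and 93 without batch C. Fibroblasts (478) gave 762 with DESeq2 and 89 without the batch term. The slope difference (26) gave 2 with DESeq2, 76 unfiltered, 1 without the batch term and 15 without batch C. The batch comparison (330) gave 910 unfiltered, 130 with stricter cells, 29 with at least 20 cells and 14 thinned. On day 9, 431 goblet genes passed 2-fold with stricter cells, against 667. Leaving out 1 library gave 0 to 67 genes in goblet cells, 1 to 135 in other columnar cells, 167 to 636 in fibroblasts, 10 to 135 for the slope difference and 71 to 918 for batch, with the low end without day 18 in the last 4 and the high end without day 7, or day 11 for batch.

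Directions turned for uncalled members only. The goblet slope of Muc2 was 0.11 unfiltered, 0.0067 without mitochondrial genes, 0.041 with stricter cells, 0.031 without the batch term, 0.14 without batch C and 0.039 thinned. With stricter cells Zg16, Tff3 and Spink4 had -0.36, -0.25 and -0.025, and thinned Spink4 -0.28. Without the batch term Fcgbp, Clca1, Zg16, Tff3 and Retnlb had -0.16, -0.23, -0.45, -0.17 and 0.016. With at least 20 cells Fcgbp, Clca1, Zg16, Tff3 and Spink4 had -0.63, -0.52, -1.08, -0.83 and -0.46. In other columnar cells Spdef had -0.018 with stricter cells, and Retnlb 0.12 without the batch term and 0.089 without batch C. The slope difference of Zg16 was -0.018 with DESeq2 size factors, -0.86 with stricter cells and -0.015 without the batch term, that of Spdef 0.27 without the batch term and 0.23 without batch C, that of Retnlb 0.21 without the batch term and that of Tff3 0.15 without batch C. For batch, Muc2 had 0.016 unfiltered and 0.52 thinned, Spink4 0.10 unfiltered and Tff3 -0.14 with at least 20 cells. With 1 library left out, goblet slopes spanned -0.23 to 0.30 (Muc2), -0.25 to 0.38 (Spink4) and -0.048 to 0.58 (Tff3), and that of Spdef in other columnar cells -0.16 to 0.58. Slope differences spanned -0.50 to 0.11 (Retnlb), -0.48 to 0.25 (Spdef), -0.35 to 0.37 (Tff3) and -0.23 to 0.44 (Zg16), and batch differences -0.72 to 0.20 (Muc2) and -0.33 to 0.15 (Spink4). The Spdef batch call was also lost unfiltered (adjusted p = 0.0746, edgeR), with stricter cells (0.106) and with at least 20 cells (0.474), while Retnlb passed with DESeq2 (4.65e-05), DESeq2 size factors (0.0471) and stricter cells (0.0299). The cause of these changes was not tested. Day 6 and day 12 goblet levels rest on 15 and 10 cells, which limits every goblet slope.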
